A study of Danio rerio with 18 samples.

Results

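Retinoic acid is made from vitamin A inside cells, acts on nuclear receptors and is then destroyed by enzymes, and 9 zebrafish genes of this route were followed here on microarrays of lateral line primordium samples with more or less FGF signalling. The genes were cyp26a1, cyp26b1 and cyp26c1 (breakdown), aldh1a2, aldh1a3, rdh10a and dhrs3a (conversion of retinol and retinaldehyde), and raraa and rarga (receptors). They were chosen by symbol, as probe sets with exactly 1 gene symbol, and each of the 9 was read by 1 probe set, out of 19260 named genes and 75212 probe sets. The choice also used a result: cyp26a1 was picked because it was among the largest falls under FGF overexpression, where it held place 8 of 19260 named genes counted from the lowest difference. Its difference of -1.87 (log2) lay between those of pcdh12 (-1.91) and lrrc4ca (-1.82). Values for FGF overexpression against control are therefore given as a description with no test. The stated reason for the choice names no value for SU5402 against control, and that comparison was tested. It rests on the same control arrays, and earlier results of these data were known when the genes were chosen.

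The lateral line primordium is a migrating epithelial cell group of the zebrafish embryo that travels down the flank and deposits sensory organs. The study placed 18 arrays in 3 groups of 6, labelled as biological replicates. FGF overexpression embryos carried cldnb:lynGFP, cxcr4b:nls-tdTomato, the hormone-switched driver cxcr4b:LexPR and the lexOP:Fgf3-GFP transgene, and received 10 µM RU486 with 0.1% DMSO. SU5402 embryos had only the first and second of these transgenes (the fluorescent reporters) and received 1 µM SU5402, an inhibitor of FGF receptor 1, on top of the same RU486 and DMSO. Control embryos had the same reporters and received RU486 and DMSO without SU5402, so that RU486, which switches the driver on and blocks steroid hormone receptors, was present in all 3 groups. Fgf3 cannot be told apart from the extra transgenes themselves, and the driver acts where cxcr4b sequences are active. The sources used here give neither the way the cells were isolated nor the exact age of the embryos.

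Retinol is oxidised to retinaldehyde by retinol dehydrogenases such as Rdh10, and retinaldehyde is oxidised to retinoic acid by the Aldh1a enzymes. Dhrs3 runs the first step backwards and returns retinaldehyde to retinol, and the Cyp26 enzymes of the cytochrome P450 family oxidise retinoic acid to inactive products. Retinoic acid binds Rar proteins, which sit on DNA as partners of Rxr proteins, and cyp26a1 and dhrs3a are themselves known to be induced by retinoic acid in zebrafish. In the extending trunk of vertebrate embryos, FGF from the tail end and retinoic acid from the somites are known to oppose each other.

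The samples held RNA of several cell types. Of 20 primordium markers 18 were measured, with a mean log2 signal of 9.96 in FGF overexpression, 9.66 in SU5402 and 9.60 in control, and cldnb (11.9 in control) and cxcr4b (10.7 in control) were among the bright ones. That list holds fgf3, the overexpressed gene, and without it the means were 9.81 (9.67 to 9.88), 9.70 (9.66 to 9.75) and 9.75 (9.47 to 9.92) in the same order of groups. These means hide moves in both directions. Of the 18 markers, fgf3 included, 4 rose and 4 fell under FGF overexpression (44.4%, beside 5.89% of named genes). Under SU5402 5 rose and 5 fell (55.6%, beside 14.7%), with lef1 at 1.52 and ackr3b at -1.72 (log2 change). Skeletal muscle and somite markers (27 genes) had means of 9.48, 9.51 and 9.74 in the same order of groups, and skin and periderm markers (23 genes) had 9.31, 8.57 and 9.42. The mean of 8 leukocyte markers was 5.94 in SU5402 (5.63 to 6.18), against 6.43 in control (6.27 to 6.54), and these ranges do not overlap. Under SU5402 3 of the 8 fell and none rose (37.5%, beside 14.7% of named genes). The lysozyme gene lyz changed most (log2 change -2.19), so the mean leans on it, and il1b (-0.81) and coro1a (-0.32) were the others that fell. mpx (-0.44), lcp1 (-0.14), mpeg1.1 (-0.10), spi1b (0.045) and ptprc (0.05) did not pass, and the last 3 lay below the array medians. The part of these cells in the SU5402 values was not tested. A change in the number of cells of a type and a change in the RNA of each cell cannot be told apart in such samples. FGF output differed as labelled for etv4, an ETS transcription factor gene downstream of FGF, with a mean of 10.99 in FGF overexpression, 5.73 in SU5402 and 9.26 in control. The ERK phosphatase gene dusp6 stood at 10.61, 9.27 and 9.24, and fgf3 at 12.38, 9.11 and 7.12. All 3 groups had array medians between 5.89 and 5.99, and no detection call came with the values. Genes near that median have signals that may be largely background, and their folds are measured values that can understate a change.

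Under SU5402 against control, 5 of the 9 retinoic acid genes passed the test, 2 higher and 3 lower, where 14.7% of all named genes passed (6.57% higher and 8.13% lower). cyp26c1, dhrs3a and rarga fell, and cyp26a1 and aldh1a3 rose (limma, adjusted p below 0.05 over all 75212 probe sets). The 5 that passed were also those in which the 6 SU5402 arrays all lay outside the control range, against 9.76% of named genes. The median change of the 9 was -0.23 (log2), beside 0.01 for all named genes. Under FGF overexpression against control, 4 of the 9 had all 6 arrays outside the control range, with cyp26b1 and dhrs3a above and cyp26a1 and raraa below, where 5.02% of named genes did so. The choice of genes used that comparison, so nothing is read from this count. Their median difference there was -0.03, beside -0.01 for all named genes. dhrs3a and cyp26a1 were outside the control range in both comparisons, which share the control arrays, in opposite directions. The share of all named genes that did so was not computed, and nothing is read from this either.

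**Figure D1:**
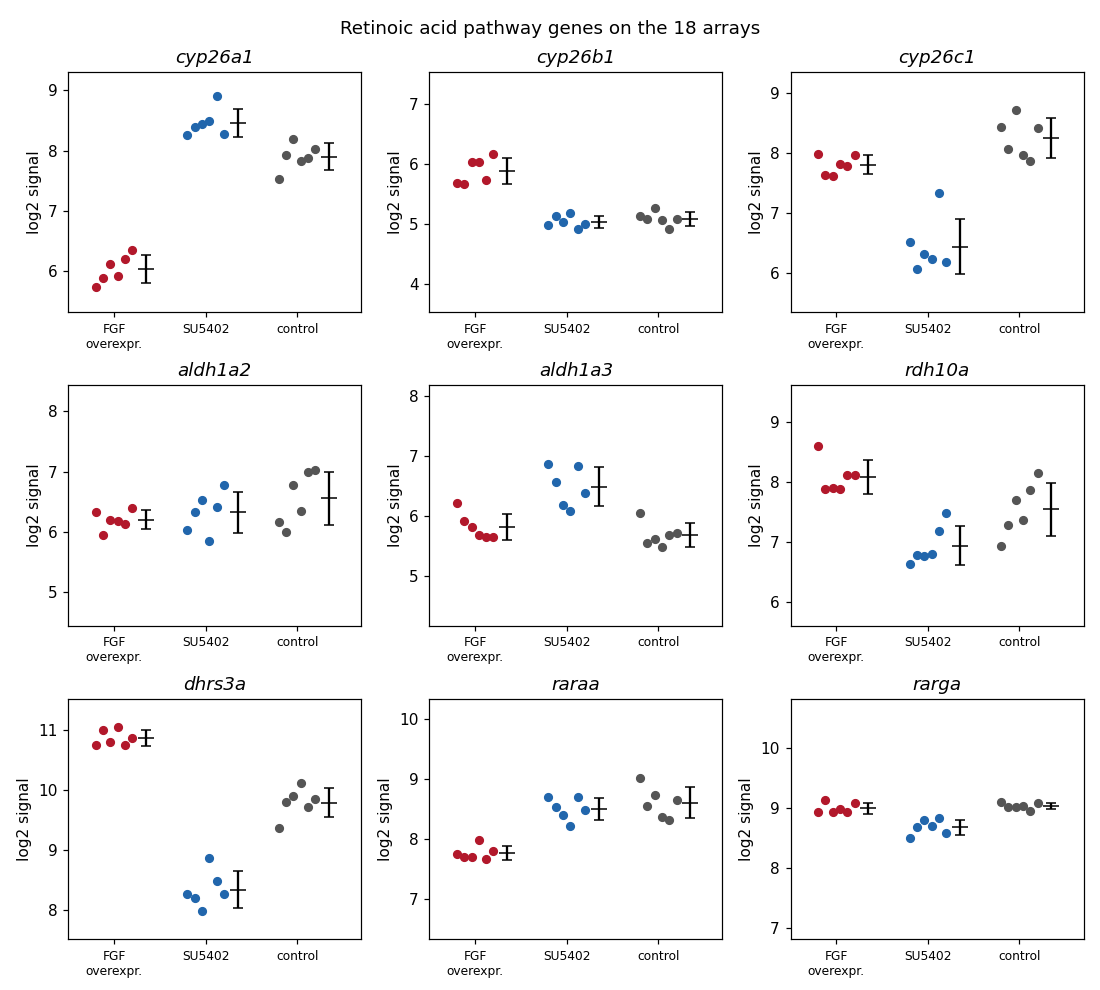
Log2 signal of the 9 retinoic acid genes on each array (points), with the mean and SD of 6 arrays beside them, for FGF overexpression, SU5402 and control from left to right, on axes that all span 4 log2 units. cyp26a1 is lowest under FGF overexpression and highest under SU5402, dhrs3a shows the reverse order, and cyp26c1 is low under SU5402 on all 6 arrays.

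Among the breakdown enzymes, cyp26a1 encodes the enzyme whose loss gives zebrafish the giraffe mutant. Its signal ran from 5.72 through a median of 6.01 to 6.35 on the FGF overexpression arrays, from 8.26 through 8.43 to 8.90 on the SU5402 arrays, and from 7.52 through 7.90 to 8.20 on the control arrays. No range touched another. The SU5402 arrays were all higher than every control array, and the FGF overexpression arrays were all at least 1 log2 unit lower. Under SU5402 cyp26a1 rose 1.48-fold (log2 change 0.57, SE 0.13, adjusted p = 0.00788). Under FGF overexpression the mean was 6.03 ± 0.23 against 7.90 ± 0.23 in control (SD, n = 6 each), a 3.65-fold lower signal (log2 difference -1.87, SE 0.13). That mean lay close to the array medians. Set against SU5402, the FGF overexpression mean was 5.41-fold lower (log2 difference -2.44).

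cyp26c1 encodes a second enzyme of the family, known from the hindbrain of the zebrafish embryo. Its signal ran from 7.61 through 7.81 to 7.98 under FGF overexpression, from 6.07 through 6.28 to 7.33 under SU5402, and from 7.87 through 8.24 to 8.72 in control. The SU5402 arrays lay below both other groups, and the FGF overexpression arrays overlapped the lower part of the control range. Under SU5402 cyp26c1 fell 3.49-fold (log2 change -1.81, SE 0.19, adjusted p = 1.81e-06). This was the biggest change of the 9 genes in that comparison, at place 47 of 19260 named genes from the lowest. SU5402 replicate 5, at 7.33, stood 0.82 above the next array, and without it the change was -1.98 (adjusted p = 4.25e-08, between 4.25e-08 and 9.82e-05 over the 10 alternatives). Under FGF overexpression the difference was -0.45 (SE 0.19), with all 6 arrays below the control mean.

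cyp26b1, the third breakdown gene, was dim in every group. It ran from 5.67 through 5.88 to 6.16 under FGF overexpression, from 4.91 through 5.02 to 5.18 under SU5402, and from 4.91 through 5.09 to 5.27 in control. Only the FGF overexpression arrays stood apart, all above every array of the other groups, by 0.80 (SE 0.09) against control and 0.85 against SU5402 (log2). Between SU5402 and control the change was -0.05, with a 95% interval from -0.25 to 0.15 (adjusted p = 0.835). The 3 Cyp26 genes thus had 3 orders of the groups: cyp26a1 was lowest and cyp26b1 highest under FGF overexpression, whereas cyp26c1 was lowest under SU5402. At cyp26b1 the SU5402 and control ranges overlapped, and at cyp26c1 the FGF overexpression and control ranges did.

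Among the enzymes upstream of retinoic acid, dhrs3a, the retinaldehyde reductase, differed most. Its signal ran from 10.74 through 10.83 to 11.05 under FGF overexpression, from 7.98 through 8.26 to 8.86 under SU5402, and from 9.37 through 9.82 to 10.11 in control. The 3 ranges were apart from each other, with FGF overexpression on top and SU5402 at the bottom, the reverse of cyp26a1. Under SU5402 dhrs3a fell 2.73-fold (log2 change -1.45, SE 0.13, adjusted p = 5.14e-07). Under FGF overexpression its mean was 10.86 ± 0.13 against 9.79 ± 0.24 in control (SD, n = 6 each), a 2.11-fold higher signal (log2 difference 1.08, SE 0.13). The FGF overexpression mean was 5.74-fold above that of SU5402 (log2 difference 2.52).

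rdh10a encodes a retinol dehydrogenase that makes retinaldehyde. It ran from 7.88 through 8.01 to 8.60 under FGF overexpression, from 6.63 through 6.80 to 7.48 under SU5402, and from 6.93 through 7.53 to 8.15 in control. Both treated ranges overlapped the control range but not each other, and their means were 2.21-fold apart (log2 difference 1.14, FGF overexpression over SU5402). The SU5402 change of -0.61 (SE 0.19) did not pass (adjusted p = 0.0569), although all 6 SU5402 arrays lay below the control mean. It passed in 5 of 10 alternatives, with adjusted p between 0.0228 and 0.0979. The FGF overexpression difference was 0.54 (SE 0.19), and 0.31 when replicate 1 was left out of each group. Replicate 1 was the lowest control array (6.93) and the highest FGF overexpression array (8.60).

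Markers of several cell types moved with rdh10a and aldh1a2 from array to array, those of endothelium and of neurons and hindbrain among them. Within FGF overexpression, SU5402 and control, endothelium markers had Pearson's r of 0.58, 0.75 and 0.89 with rdh10a, and 0.74, 0.78 and 0.70 with aldh1a2. Neuron and hindbrain markers had 0.67, 0.94 and 0.95 with rdh10a, and 0.19, 0.88 and 0.87 with aldh1a2. Muscle and somite markers had -0.01, 0.91 and 0.88 with rdh10a, and 0.27, 0.91 and 0.66 with aldh1a2. For mesenchyme markers the values were -0.53, 0.89 and 0.95 with rdh10a, and -0.05, 0.92 and 0.76 with aldh1a2. For skin markers they were -0.84, 0.75 and 0.84 with rdh10a, and -0.51, 0.71 and 0.66 with aldh1a2. Other members followed some of these markers too. In the same order of groups, cyp26a1 had 0.86, 0.24 and 0.80 with muscle markers and 0.92, -0.01 and 0.80 with mesenchyme markers. It had 0.13, 0.23 and 0.89 with skin, 0.51, 0.39 and 0.57 with endothelium, and -0.38, 0.29 and 0.76 with neuron markers. dhrs3a had 0.53, -0.08 and 0.76 with skin markers, and -0.22, -0.30 and 0.36 with muscle markers. The mean of the 15 neuron and hindbrain markers was 7.21 in FGF overexpression (6.97 to 7.43), 6.80 in SU5402 (6.52 to 7.15) and 7.08 in control (6.58 to 7.41). In SU5402 and in control, replicate 1 had both the lowest marker mean (6.52 and 6.58) and the lowest rdh10a signal (6.63 and 6.93). In FGF overexpression, replicate 1 had both the highest marker mean (7.43) and the highest rdh10a signal (8.60). Of these 15 markers 1 rose under FGF overexpression (6.67%, beside 5.89% of named genes), and 2 fell under SU5402 (13.3%, beside 14.7%). Skin, muscle and mesenchyme markers were lowest on replicate 1 in all 3 groups. The rdh10a signal of FGF overexpression replicate 1 (8.60) stood far from its group, with the next array at 8.12. On replicate 6 of SU5402 and of control, muscle markers (10.06 and 10.12), mesenchyme markers (7.83 and 8.19), rdh10a (7.48 and 8.15) and aldh1a2 (6.78 and 7.03) were each at their highest within the group. The part of any of these cell types in the values of rdh10a, aldh1a2, cyp26a1 and dhrs3a was not tested.

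**Figure D2:**
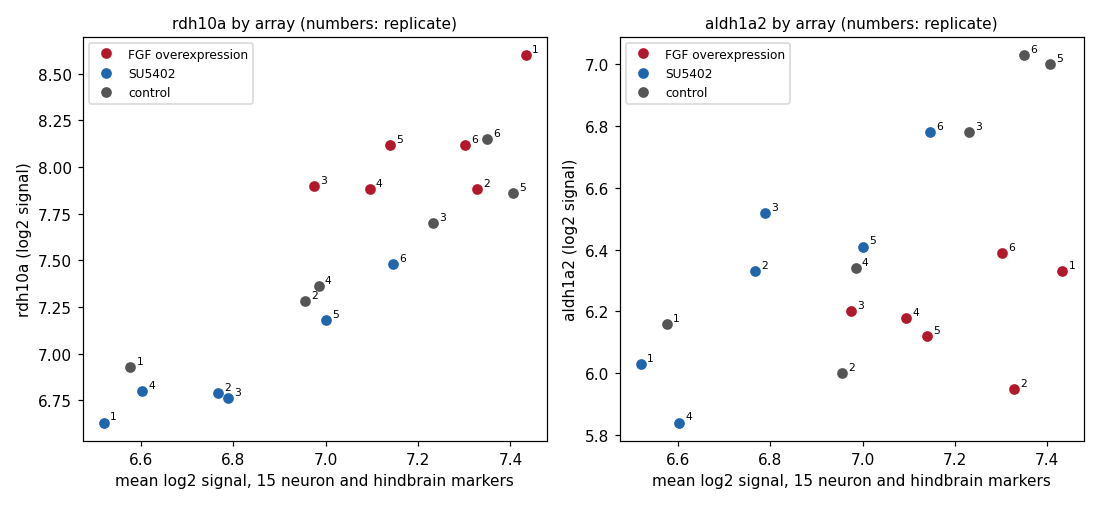
Log2 signal of rdh10a (left) and aldh1a2 (right) against the mean log2 signal of 15 neuron and hindbrain markers on the same array, coloured by group and numbered by replicate. rdh10a tends to be higher on arrays with more marker signal, from SU5402 replicate 1 (6.52 and 6.63) to FGF overexpression replicate 1 (7.43 and 8.60). aldh1a2 also tends to be higher with more marker signal within SU5402 and within control, and its FGF overexpression arrays lie between 5.95 and 6.39.

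The Aldh1a genes, which carry out the last step of synthesis, were dim. aldh1a2 encodes the main embryonic enzyme, made in somites, whose loss gives the zebrafish neckless mutant. It ran from 5.95 through 6.19 to 6.39 under FGF overexpression, from 5.84 through 6.37 to 6.78 under SU5402, and from 6.0 through 6.56 to 7.03 in control. All 3 ranges overlapped. The SU5402 change was -0.23, with a 95% interval from -0.62 to 0.15 (adjusted p = 0.535), and the FGF overexpression difference was -0.36 (SE 0.18). Across arrays aldh1a2 spread less under FGF overexpression (SD 0.16) than under SU5402 (SD 0.34) or in control (SD 0.44), a difference in spread that was not tested.

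aldh1a3, known from the eye and ear of the fish embryo, ran from 5.65 through 5.75 to 6.21 under FGF overexpression, from 6.08 through 6.48 to 6.86 under SU5402, and from 5.49 through 5.66 to 6.05 in control. Only the SU5402 arrays lay wholly above control. The rise under SU5402 was 1.74-fold (log2 change 0.80, SE 0.14, adjusted p = 0.000892), with control close to the array medians. The FGF overexpression difference was 0.13 (SE 0.14), with 3 arrays above and 3 below the control mean.

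Each receptor stood outside the control range in 1 comparison, raraa under FGF overexpression and rarga under SU5402. raraa encodes a retinoic acid receptor alpha. It ran from 7.67 through 7.73 to 7.98 under FGF overexpression, from 8.21 through 8.51 to 8.69 under SU5402, and from 8.31 through 8.60 to 9.01 in control. The FGF overexpression arrays lay below all the others, 1.79-fold below control in the mean (log2 difference -0.84, SE 0.11), whereas SU5402 and control overlapped (log2 change -0.10, 95% interval -0.34 to 0.14, adjusted p = 0.692). rarga encodes a retinoic acid receptor gamma. It ran from 8.93 through 8.96 to 9.14 under FGF overexpression, from 8.50 through 8.70 to 8.83 under SU5402, and from 8.96 through 9.03 to 9.10 in control. It fell 1.27-fold under SU5402 (log2 change -0.35, SE 0.07, adjusted p = 0.00249), with no SU5402 array as high as the lowest control array, and its FGF overexpression difference was -0.03 (SE 0.07).

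**Figure D3:**
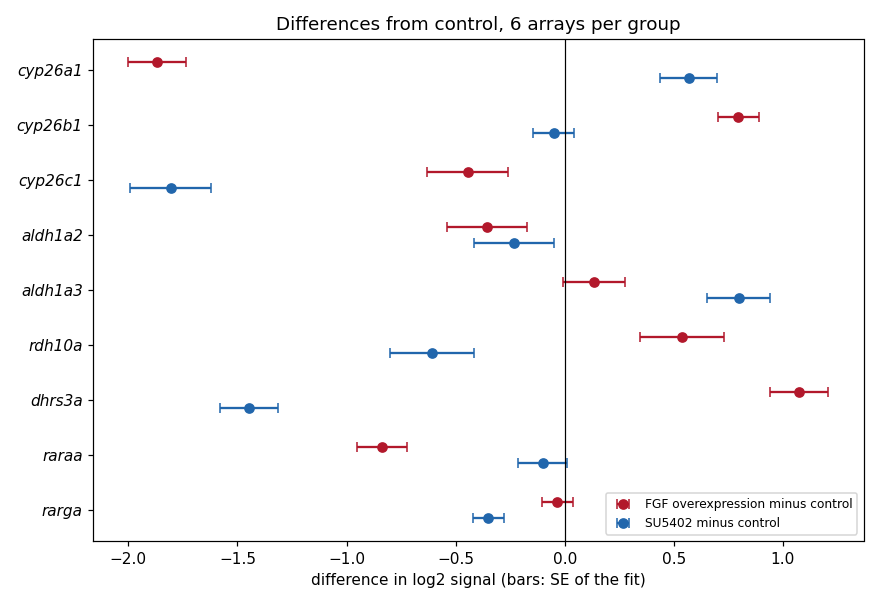
Difference in log2 signal from control for each of the 9 genes (points) with the standard error of the fit (bars), for FGF overexpression (red, upper point) and SU5402 (blue, lower point), 6 arrays per group. dhrs3a and cyp26a1 lie on opposite sides of 0 in the 2 comparisons, at 1.08 and -1.45 and at -1.87 and 0.57.

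The level of skin and periderm markers moved with the SU5402 group as well: 10 of 23 fell and 1 rose (47.8%), where 14.7% of named genes passed under SU5402. Their mean lay between 8.33 and 8.77 on the SU5402 arrays and between 8.94 and 9.60 on the control arrays. Mesenchyme, fin fold and cartilage markers (20 genes) also lay lower, with 5 lower and none higher and a mean of 7.34 in SU5402 (7.02 to 7.83) against 7.79 in control (7.25 to 8.19). Both lists held bright genes, with krt4 at 12.1 and and1 at 11.1 in control. Under SU5402 and1 fell (log2 change -1.11, limma adjusted p = 0.00967). Among bright skin markers, icn (-0.965), krt5 (-0.665), krt15 (-1.70) and krt1-c5 (-3.17) were among those that fell. krt4 did not pass (-0.19, adjusted p = 0.214), nor did the bright skin markers cyt1l (-0.24) and krt91 (-0.54), and krt8 was the skin marker that rose (0.38). Endothelium markers (10 genes, 4 lower and none higher under SU5402) had means of 5.93 in SU5402 and 6.45 in control. The part of these cells in the falls of dhrs3a, cyp26c1 and rarga was not tested. Under FGF overexpression 1 skin and periderm marker fell and none rose (4.35%, beside 5.89% of named genes). Of the 10 endothelium markers 2 rose and 1 fell there (30%), with egfl7 at 1.25, kdr at 0.80 and kdrl at -0.92. Of the 20 mesenchyme, fin fold and cartilage markers 2 rose and none fell (10%).

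The rest of the retinoid pathway was followed in 4 lists that held 125 other genes, of which 99 were measured. Under FGF overexpression 15 passed, 4 higher and 11 lower (15.2%, beside 5.89% of named genes, 3.41% higher and 2.48% lower), with a median difference of -0.09 beside -0.01. Under SU5402 20 passed, 13 higher and 7 lower (20.2%, beside 14.7% of named genes), but 13 passed without replicate 6 of each group. Of all probe sets, 5369 passed in that smaller fit, against 7074. With all arrays the 99 had a median change of 0.03 beside 0.01. The lists were compiled with results of these data known.

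Of 21 other genes of retinoid oxidation and reduction, 1 rose and 2 fell under FGF overexpression (14.3%, beside 5.89% of named genes). Under SU5402 1 rose (4.76%, beside 14.7% of named genes). The paralog dhrs3b went the other way from dhrs3a under FGF overexpression. It ran from 6.94 through 7.24 to 7.60 there and from 7.87 through 8.07 to 8.52 in control, and fell by 0.85 on the log2 scale (SE 0.13, adjusted p = 0.000293). Under SU5402 dhrs3b was at -0.23 (adjusted p = 0.321). The dehydrogenase genes rdh12l (0.37, adjusted p = 0.0417) and aldh2.2 (-0.48, adjusted p = 0.0348) passed under FGF overexpression, and rdh14b (0.39, adjusted p = 0.0380) under SU5402. rdh10b, the paralog of rdh10a, passed in neither comparison (0.15 under FGF overexpression and 0.27 under SU5402).

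Of 23 genes of uptake, binding and storage, 1 rose under FGF overexpression (4.35%, beside 5.89% of named genes). Under SU5402 1 rose and 1 fell (8.7%, beside 14.7% of named genes). stra6, the gene for the cell surface receptor that takes up retinol from its carrier protein, ran from 7.22 through 7.44 to 7.73 on the SU5402 arrays and from 6.28 through 6.32 to 6.63 on the control arrays. The groups were apart, and stra6 rose 2.16-fold under SU5402 (log2 change 1.11, SE 0.11, adjusted p = 9.23e-07). Under FGF overexpression it was at -0.03 (adjusted p = 0.938). The lipoprotein receptor gene scarb1, whose product takes up carotenoids, rose under FGF overexpression (0.61, SE 0.12, adjusted p = 0.00401), and the retinol-binding protein gene rbp7b fell under SU5402 (-0.80, SE 0.24, adjusted p = 0.0415). rbp7b was dim, and its SU5402 arrays (4.57 to 5.70) overlapped its control arrays (5.63 to 6.59). Replicates 1 and 4 of SU5402, at 4.57 and 4.58, lay well below the other SU5402 arrays. The crabp genes, whose products carry retinoic acid in the cytoplasm, did not pass in either comparison, with crabp2a at -0.45 under FGF overexpression and crabp1b at -0.64 under SU5402 as the lowest values.

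Of 22 other receptors and cofactors, 2 rose and 2 fell under FGF overexpression (18.2%, beside 5.89% of named genes). Under SU5402 1 rose and 2 fell (13.6%, beside 14.7% of named genes). The paralogs nrip1a and nrip1b encode a corepressor that binds nuclear receptors in the presence of their ligand, and they moved in opposite directions. nrip1b ran from 9.04 through 9.15 to 9.50 under FGF overexpression, from 10.69 through 10.80 to 11 under SU5402, and from 9.85 through 10.00 to 10.12 in control. It fell under FGF overexpression (-0.80, SE 0.09, adjusted p = 9.67e-06) and rose under SU5402 (0.83, SE 0.09, adjusted p = 2.01e-06). nrip1a rose under FGF overexpression (0.68, SE 0.11, adjusted p = 0.000741) and fell under SU5402 (-0.42, SE 0.11, adjusted p = 0.0202). The other probe set of each paralog passed in the same directions in both comparisons. The corepressor gene ncor1 (-0.28) and the Mediator subunit gene med25 (0.41) passed under FGF overexpression, and the Rxr gene rxrab (-0.45) under SU5402. The remaining Rar genes, rarab and rargb, passed in neither, with -0.26 and -0.34 under FGF overexpression and -0.04 and -0.21 under SU5402.

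Of 37 measured genes known to respond to retinoic acid in vertebrate embryos, 8 fell and none rose under FGF overexpression (21.6%, beside 5.89% of named genes). Under SU5402 10 rose and 4 fell (37.8%, beside 14.7% of named genes). The medians of the 37 were -0.30 and 0.02 (log2) in the same order, beside -0.01 and 0.01 for all named genes. The list does not separate genes that retinoic acid raises from genes that it lowers. The counts and medians therefore give no direction of a retinoic acid response. Under FGF overexpression the T-box gene tbx1 (-2.31), hoxb5b (-1.17), the orphan nuclear receptor gene nr2f1a (-1.0), dhrs3b, the homeobox gene meis2a (-0.75), the transglutaminase gene tgm2b (-0.71), tshz1 (-0.54) and hoxd4a (-0.49) fell. Leaving tbx1 aside, their adjusted p (limma) ran from 1.75e-05 for hoxb5b to 0.0188 for tshz1, whose other probe sets did not pass. tbx1, like cyp26a1, was already known as one of the largest falls in that comparison, so no p-value is given for it there. The counts for this list and for the 4 lists together include tbx1. Under SU5402 hoxd4a (1.02), meis3 (0.95), nr2f1b (0.84), tgm2b (0.78), hoxb6a (0.58) and nr2f6a (0.56) rose, and tbx1 (-1.57) and hoxb5b (-0.63) fell. Of those 8 the highest adjusted p was 0.00393, for hoxb5b.

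hoxd4a shows the spread behind these values. It ran from 8.05 through 8.48 to 8.58 under FGF overexpression, from 9.68 through 9.92 to 10.18 under SU5402, and from 8.54 through 8.96 to 9.12 in control. The SU5402 arrays were all above control, while the FGF overexpression arrays overlapped the bottom of the control range at control replicate 1. The Hox, Meis and Nr2f genes also respond to signals other than retinoic acid, and no measurement of retinoic acid itself belongs to these data.

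**Figure D4:**
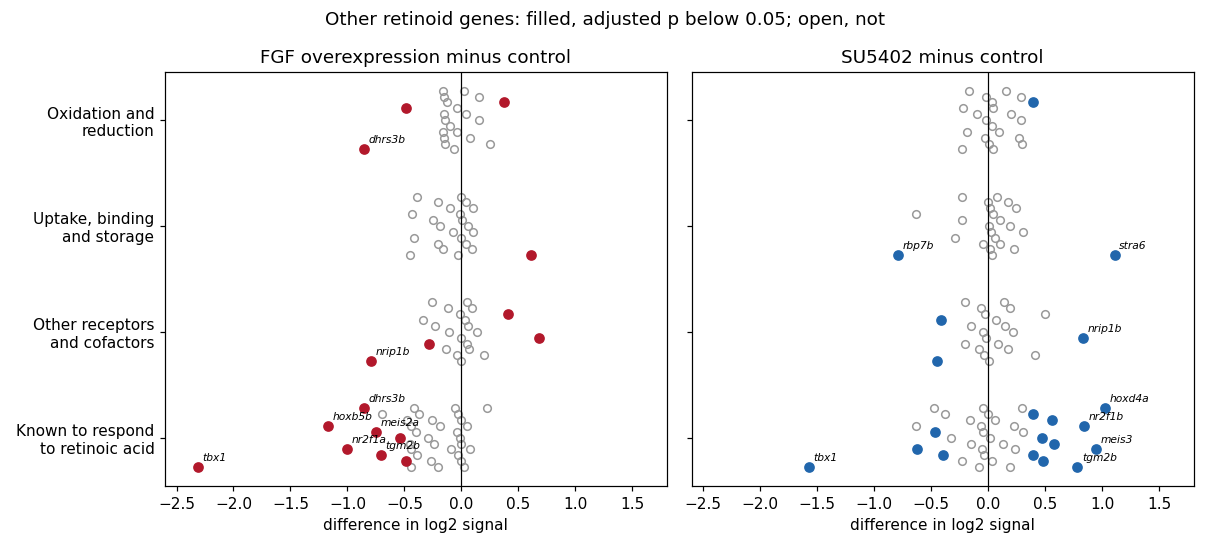
Difference in log2 signal from control of the measured genes of 4 retinoid lists (rows), for FGF overexpression (left) and SU5402 (right); each point is a gene, filled where adjusted p was below 0.05, and points are offset vertically for legibility. Among genes known to respond to retinoic acid the 8 filled points on the left all lie below 0, and on the right 10 lie above and 4 below.

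The genes whose pattern over the 18 arrays was most like that of cyp26a1, out of 16939 named genes, were PLA2R1 (r = 0.970), ggact.3 (0.963), arhgap24 (0.962), the protocadherin gene pcdh19 (0.960) and the matrix protein gene smoc2 (0.957). The most opposite were sostdc1a (-0.983), the secreted glycoprotein gene stc1 (-0.978), the Wnt antagonist gene sost (-0.973), the chemokine decoy receptor gene ackr3a (-0.972) and mxi1 (-0.972). For dhrs3a, the other gene with the smallest p under SU5402, the most alike were nipal3 (0.984), b3galt11 (0.979), abhd12 (0.975), SEMA4F (0.971) and the Wnt modulator gene dkk2 (0.971). The most opposite to dhrs3a were the Wnt pathway transcription factor gene lef1 (-0.988), the guidance receptor genes robo1 (-0.981) and robo3 (-0.979), kirrel1a (-0.978) and the ligand gene wnt3 (-0.975). The arrays fall into 3 groups, and such values mostly compare group means. Computed on deviations from the group means, r lay between 0.04 and 0.44 for the 5 genes most like cyp26a1, and between 0.06 and 0.68 for the 5 most like dhrs3a. For the 5 most opposite it lay between -0.47 (sostdc1a) and -0.18 (sost) with cyp26a1, and between -0.77 (lef1) and -0.38 (wnt3) with dhrs3a.

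**Figure D5:**
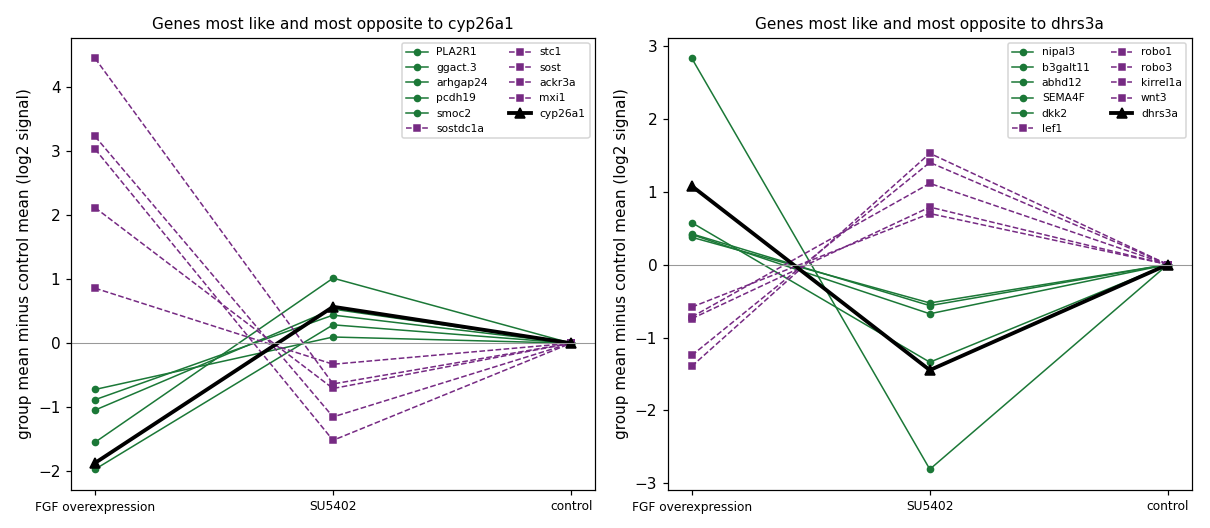
Group mean minus control mean (log2 signal) for FGF overexpression, SU5402 and control, for cyp26a1 (left, black) and dhrs3a (right, black), with the 5 genes of highest correlation over 18 arrays (green, solid) and the 5 of lowest (purple, dashed). Lines join the groups of 1 gene and stand for no order. sost reaches 4.45 above control where cyp26a1 is at -1.87, and dkk2 spans both sides of control in the same directions as dhrs3a.

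None of the measured genes next to the 5 members that passed under SU5402 passed with them. No neighbour of aldh1a3 was measured, and beside dhrs3a only igsf21b was. In the order of protein-coding genes of the zebrafish RefSeq annotation (GRCz12tu), 7 of their neighbours were measured, with changes between -0.22 and 0.17 (log2). None passed the limma test, where 14.7% of named genes did, and 1 had an unadjusted p below 0.05. With only 7 genes, none passing cannot be told apart from that share. cyp26a1 lies between reep3b and exoc6, cyp26c1 lies between slc22a15 and reep3a, and cyp26b1 lies next to exoc6b, so that the 3 Cyp26 genes are flanked by related genes. Beside cyp26a1, reep3b was at -0.09 and exoc6 at -0.20 (adjusted p = 0.597 and 0.0670), and beside cyp26c1, reep3a was at -0.22 (adjusted p = 0.435).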

How the data were processed

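Total RNA of 18 samples was labelled and hybridised to Affymetrix zebrafish gene arrays, 1 array a sample. The authors deposited 1 log2 signal for each probe set and array; the submitters' processing notes name Affymetrix Power Tools and RMA, without versions. RMA corrects background and normalizes arrays to a shared distribution, so that differences are relative to the other probe sets. The build behind the probe sets is not stated there. Values were used as deposited, from 1.20 to 13.88, with no filter. Probe sets with 1 symbol numbered 20806, with several 855 and with none 53551. The probe set with the highest mean stood for a gene with several. Names came from the platform annotation, which may be old, and all 9 members were found in RefSeq by gene ID.

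Contrasts came from limma 3.58.1 (R 4.3.3), fitted to the 3 group means on all 18 arrays, two-sided, adjusted by Benjamini-Hochberg over 75212 probe sets, with a threshold of 0.05. Errors written as SE are those of the fit, and 95% intervals use its degrees of freedom. It was first tested on simulated data. The number of arrays limits the precision, and p-values set a difference of group means against the spread between these samples within groups. Within groups, arrays correlated at 0.967 to 0.983. Non-member genes were named as those past the threshold, up to the 8 largest changes per list, and likeness was Pearson's r over the arrays, 5 genes at each end. Clone and locus names were passed over there. Members and lists were chosen with earlier results of these data known. Alternatives covered the replicate number as a block, only the compared arrays, 2 scalings, the variance model, array weights, a filter on dim probe sets and left-out arrays. No sequences are shown.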

Additional observations from a re-analysis of the deposited data

Results flagged for a closer look

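In 3 cases a value stood far from the other 5 arrays of its group. SU5402 replicate 5 was the highest of its group for cyp26a1 (8.90, with the next array at 8.49) and for cyp26c1 (7.33, with the next at 6.51). Without that array cyp26a1 changed by 0.48 (adjusted p = 0.0195) and cyp26c1 by -1.98 (adjusted p = 4.25e-08) against control. FGF overexpression replicate 1 was the highest of its group for rdh10a (8.60, with the next at 8.12), and without it the difference from control was 0.43. Leaving out these arrays was chosen after seeing the data. Among 27 groups of 6 values checked, 3 were so marked, and chance marks about 1 in 20.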

How the results depend on the processing

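All 5 retinoic acid genes that passed under SU5402 passed in all 10 alternatives run, in the same direction, and rdh10a passed in 5 of them (quantile normalization, intensity trend and robust variance, the filter on dim probe sets, without replicate 1, and with the replicate block). The number of members that passed was 5 or 6 throughout, and no log2 difference of a member changed sign. Without replicate 1 or without replicate 6 of each group, 13 to 14 other retinoid genes passed under SU5402, against 20 with all arrays. Under FGF overexpression 12 to 14 passed, against 15. Probe sets that passed numbered 5369 to 6454 under SU5402, against 7074, and 2205 to 2453 under FGF overexpression, against 3052. These fits hold fewer samples. The filter on dim probe sets removed cyp26b1, which has no value there. With the replicate number as a block 8390 probe sets passed under SU5402 and 3950 under FGF overexpression, against 7074 and 3052, with 6 members, 23 and 20 other retinoid genes. Same-numbered arrays of different groups correlated at 0.01 to 0.23 in their deviations from the group means, and differently numbered arrays at -0.22 to 0.14. Of the 18 arrays, 10 correlated best with their own number, a sign of a shared effect from the data and not from the design. For rdh10a under SU5402 this choice matters: the limma adjusted p was 0.0356 with the block and 0.0569 without it. Not every pair was above 0.1 and the labels do not tie a number to a shared batch, so the fit without the block was kept. After array medians were shifted to 1 value, 40.7% of calls under SU5402 were higher, against 49.8%. Signal near or below the array medians limits what can be said of cyp26b1, aldh1a2 and aldh1a3. The same holds for cyp26a1 under FGF overexpression and cyp26c1 under SU5402. Among the other retinoid genes it limits rbp7b, rxrab, nr2f1b, rdh12l and rdh14b, and stra6 outside the SU5402 group.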
